A study of Homo sapiens with 32 samples.

Results

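Untreated HEK293 cells after 6 h formed the baseline for the stimuli that lasted 6 h. HEK293 is an established human embryonic kidney cell line. The baseline consisted of the 4 libraries labelled as control after 6 h (c01, c02, c09 and c10), out of 16 libraries after 6 h and 31 libraries with counts in all (32 in the labels). All groups, controls included, were transiently transfected with an expression plasmid for AT1R, the angiotensin II receptor type 1. Growth medium held 10% FCS (serum), and all stimuli were given in serum-free DMEM. The other groups then received 10 µg/l EGF, 1 nmol/l AII (angiotensin II) or both for 6 h or 24 h. The share of cells that took up the plasmid is not given in the sources used here, and reads from the plasmid and from the cells' own AGTR1 gene cannot be told apart. RNA was depleted of ribosomal RNA and sequenced as paired reads, so that non-coding RNA was retained. Nothing states that the libraries came from separate cultures, so p-values measure the spread between these samples, which may be technical. In bulk RNA, fewer cells that express a gene and less RNA per cell cannot be told apart.

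AT1R is a heptahelical receptor that couples mainly to Gq and G11. These activate phospholipase C, which releases calcium through IP3 and activates protein kinase C, while GRKs and arrestins desensitise the receptor. EGFR is a receptor tyrosine kinase that recruits GRB2 and SOS to RAS and thereby switches on RAF, MEK and ERK. Sheddases such as ADAM17 can release EGF-family ligands from the membrane, which is the textbook route from a heptahelical receptor to EGFR. Both routes meet at serum response factor (SRF), which acts with ELK1 downstream of ERK and with MRTF (MKL1) downstream of actin, and controls immediate early genes such as FOS, EGR1 and ARC.

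The control libraries held 4445377 (c01), 6168318 (c02), 5158900 (c09) and 6102110 (c10) counts. Protein-coding genes took 82.1% to 83.3% of them. No pair of libraries differed by less than the sampling noise, with a chi-square per gene of at least 3.10. Library c01 stood apart, since its log2 levels correlated with those of the other controls at r = 0.964 to 0.973, against 0.985 to 0.987 among the other 3. Of 8126 protein-coding genes above 20 CPM, 4062 were farthest from the others in c01. CPM scale the counts of a gene to a common total per library, are the quantity called FPM in the study and serve to compare a gene between libraries. TPM also divide by the summed length of a gene's annotated exons and serve to compare genes within a library. Here the total behind this scaling was that of protein-coding genes alone, with other genes put on the same scale. Values with ± are means and SD over the 4 control libraries, or over the 4 libraries of another group where one is named, and log2 fold changes with ± carry their SE.

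Of 57773 genes in the table, 19973 (34.6%) had a mean above 1 CPM, and 13019 (22.5%) passed the limit of 5 FPM that the study set for regulated genes. Among 20327 protein-coding genes, 13599 (66.9%) exceeded 1 CPM and 11243 (55.3%) exceeded 5 CPM, whereas 140 exceeded 500 CPM. The 10 most abundant genes together took 9.04 ± 0.667% of all counts, and the 1000 most abundant took 45.4%. Within protein-coding genes the 10 most abundant took 2.75 ± 0.327%. The counted pool was thus spread over many genes, and what stood at its top was mostly non-coding RNA. Mitochondrial genes had 0 counts in every library, so these shares and ranks do not cover them.

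By count, the non-coding leaders were XIST, the RNA that silences an X chromosome, and abundant RNA polymerase III transcripts. RN7SL1, the RNA of the signal recognition particle, reached 12463 ± 3085 CPM. RN7SK, which restrains the elongation factor P-TEFb, had 14126, 12528, 10048 and 12913 CPM in c01, c02, c09 and c10. RPPH1, the RNA of RNase P, reached 7094 ± 1415 CPM. Levels of these RNAs differed between libraries by less than those of MIR3648 and MIR3687, which lie in the precursor of ribosomal RNA on chromosome 21. MIR3648 had 11475 CPM in c01 and 3797 to 5777 CPM in the other 3 libraries. The pseudogene EEF1A1P5 was listed at 10232 ± 1420 CPM and its near-identical parent EEF1A1, an elongation factor, at 2696 ± 148 CPM. How reads were assigned to such copies, and whether some were counted at both, is uncertain. The levels of parent and pseudogene should be read with that limit.

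Per length, the protein-coding genes at the top were histones, ribosomal proteins, a translation factor, chaperones and the transfected receptor. Of the 25 protein-coding genes with the highest TPM, 12 were replication-dependent histone genes and 7 encoded cytosolic ribosomal proteins. EEF2, which moves the ribosome along the mRNA (chr19:3976054-3985461, hg19), reached 5490, 5284, 5047 and 5688 CPM, and its level per length was 8493 TPM. These 4 values lay closer together than those of the histone H3 genes. HIST2H3A and HIST2H3C, copies of a histone H3 gene whose counts differed by at most 1 in each library, had 2524 CPM in c01 but 1203, 1234 and 1409 CPM in c02, c09 and c10. The same reads may have been counted at both copies, which was not tested. HIST1H1C, a linker histone, followed at 1088 ± 353 CPM (9383 TPM). Histone genes as a class took 1.99% of the counts in c01 and 1.26% to 1.44% in the others. As most replication-dependent histone mRNAs lack a poly(A) tail, their detection here goes with RNA that was not selected by poly(A). Ribosomal protein genes took 3.06 ± 0.308% of the counts, with RPS4X at 3008 ± 315 CPM and RPL5 at 1416 ± 44.4 CPM. RPS19 was 2496 CPM in c01 and 1095 to 1343 CPM elsewhere. The heat shock proteins HSPA1B (1082 ± 248 CPM) and HSPA1A (1021 ± 246 CPM) belong to near-identical copies, so their split is uncertain. GAPDH, a glycolytic enzyme, had 928 ± 63.7 CPM (2465 TPM).

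**Figure D1:**
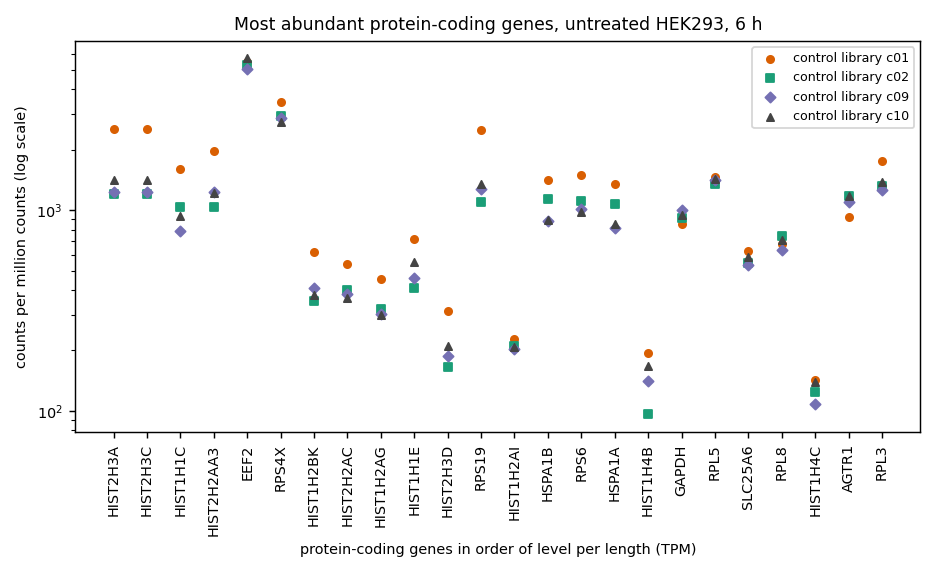
CPM (log axis) of protein-coding genes among the 25 with the highest mean TPM, from left to right in TPM order, with 1 point per control library after 6 h. The histone points of c01 lie above those of the other libraries for most genes (HIST2H3A at 2524 against 1203 to 1409 CPM), whereas EEF2, RPL5 and GAPDH lie close together and AGTR1 stands at 924 to 1180 CPM.

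Messages of the translation machinery often begin with a C followed by a run of pyrimidines, the 5′ terminal oligopyrimidine tract through which mTOR controls their translation. Start-site sequences from RefSeq (GRCh38.p14, another build than the hg19 of the counts, matched by gene) show this tract for some abundant genes of the baseline. Each sequence below holds 10 bases before the annotated start and continues from it, with the initial C and its pyrimidine run in capitals.
EEF2: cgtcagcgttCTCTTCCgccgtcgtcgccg
RPS19: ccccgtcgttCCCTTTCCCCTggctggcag
RPS6: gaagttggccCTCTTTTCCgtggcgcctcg
EEF1A1: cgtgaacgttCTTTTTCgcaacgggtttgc
GAPDH: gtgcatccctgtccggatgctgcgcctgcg
EEF2 lies at chr19:3985444-3985473 (minus strand), RPS19 at chr19:41860245-41860274 (plus), RPS6 at chr9:19380217-19380246 (minus), EEF1A1 at chr6:73521013-73521042 (minus) and GAPDH at chr12:6535254-6535283 (plus). GAPDH is shown as an abundant gene without the tract at its annotated start. The ribosomal protein genes RPS4X and RPL3 also lacked the tract at theirs. The motif counted was a C exactly at the start followed by 4 or more bases that were each C or T, on the transcribed strand. It was found for 21 of the 81 genes with a start site among the 100 most abundant protein-coding genes (25.9%). Of these 100 genes, 26 encoded ribosomal proteins. Without ribosomal protein genes the share was 8 of 62 (12.9%). It was 581 of 10909 (5.33%) among protein-coding genes above 1 CPM and 1104 of 27305 (4.04%) among all start sites in the reference table. These shares describe letters at an annotated start and not translation, which was not measured.

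The lineage genes of the baseline were a mixture of mesenchymal, neuronal, embryonic and early kidney genes, while most genes of differentiated epithelium were low. Neurofilaments, the intermediate filaments of neurons, had the highest levels among 153 different genes of 15 lineage lists. NEFM was 348, 443, 459 and 520.0 CPM and NEFL 586, 415, 402 and 417 CPM in c01, c02, c09 and c10, with levels of 776 and 730.0 TPM. Library c01 was the lowest for NEFM and the highest for NEFL, so that the order of these genes differed between libraries. Of the other 12 neuronal genes, 4 exceeded 1 CPM and none exceeded 6 CPM, with INA at 5.83 ± 2.04 CPM and SYP, a synaptic vesicle protein, at 4.27 ± 1.03 CPM. The neuronal list thus owed nearly all of its summed 915 ± 45.6 CPM to NEFM and NEFL.

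Among the lineage lists, the mesenchymal list had the largest share of expressed members, with 11 of 13 above 1 CPM and 5 above 50 CPM. VIM, the mesenchymal intermediate filament vimentin, was 313, 322, 314 and 296 CPM (382 TPM). The transcription factors ZEB1 (93.9 ± 11.1 CPM) and SNAI2 (37.3 ± 4.60 CPM), which repress epithelial genes, and CDH2, N-cadherin (53.8 ± 6.67 CPM), were present in all control libraries. Of 14 epithelial genes, 7 were at 3 counts or fewer in every control library and 2 exceeded 5 CPM, OCLN, a tight junction protein, at 42.4 ± 5.30 CPM and the keratin KRT8 at 9.90 ± 2.07 CPM. The defining epithelial genes CDH1 (E-cadherin) and EPCAM did not exceed 0.5 CPM in any control library.

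Kidney genes were at low to moderate levels, and progenitor genes had the highest sum among the 4 kidney lists. Of 14 kidney progenitor genes, 9 exceeded 1 CPM. Among them were SALL1 (28.2 ± 4.41 CPM), HOXA11 (16.03 ± 2.48 CPM) and HOXD11 (13.03 ± 1.54 CPM), which pattern the metanephric kidney. Summed over the list, the level was 139 ± 3.35 CPM and thus nearly equal in the control libraries. Of 14 proximal tubule genes, 10 exceeded 1 CPM, with GGT1, a brush border enzyme, at 10.4 ± 2.82 CPM, and the list summed to 58.7 ± 3.05 CPM. No gene of the progenitor or the proximal tubule list exceeded 50 CPM, while 7 progenitor and 5 proximal tubule genes exceeded 5 CPM. Of 14 genes of the distal nephron and collecting duct, 3 exceeded 1 CPM, and POU3F3, a factor of the developing nephron that is also active in brain, held 81.8 ± 14.02 of the list's 92.9 ± 15.5 CPM. Among 8 podocyte genes, 3 exceeded 1 CPM and 4 were at 3 counts or fewer in every control library. PODXL had the highest level of this list, at 33.4 ± 2.68 CPM.

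Of 9 pluripotency and embryonic genes, 5 exceeded 1 CPM and 3 were at 3 counts or fewer in every control library. They were led by LIN28B, which blocks maturation of let-7 microRNAs, at 127 ± 14.1 CPM (136 TPM). DNMT3B, a de novo DNA methyltransferase, was 54.0 ± 5.15 CPM. The pluripotency factors SOX2 (9.16 ± 1.27 CPM) and POU5F1 (8.54 ± 1.90 CPM) were lower. Of 9 neural progenitor and glial genes, 5 exceeded 1 CPM, with PAX6 at 57.0 ± 4.94 CPM and SOX9 at 29.96 ± 1.92 CPM. Sympathoadrenal genes summed to 7.52 CPM, and 4 of 9 exceeded 1 CPM, among them SOX10 at 2.61 ± 0.346 CPM. Of 9 adrenal cortex genes, 7 were at 3 counts or fewer in every control library. The lists that mark other tissues had summed levels of 0.365 CPM for hepatocyte, 4.31 CPM for blood, 8.57 CPM for endothelium and 26.8 CPM for muscle genes. Of these lists, only that of hepatocytes had all of its genes at 3 counts or fewer in every control library. In each of the blood and endothelial lists 1 gene exceeded 1 CPM, which in the endothelial list was CLDN5 (7.31 ± 0.542 CPM). The muscle genes above that limit were MYH11 (16.5 ± 1.87 CPM) and ACTA2 (9.31 ± 4.29 CPM), both of smooth muscle.

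**Figure D2:**
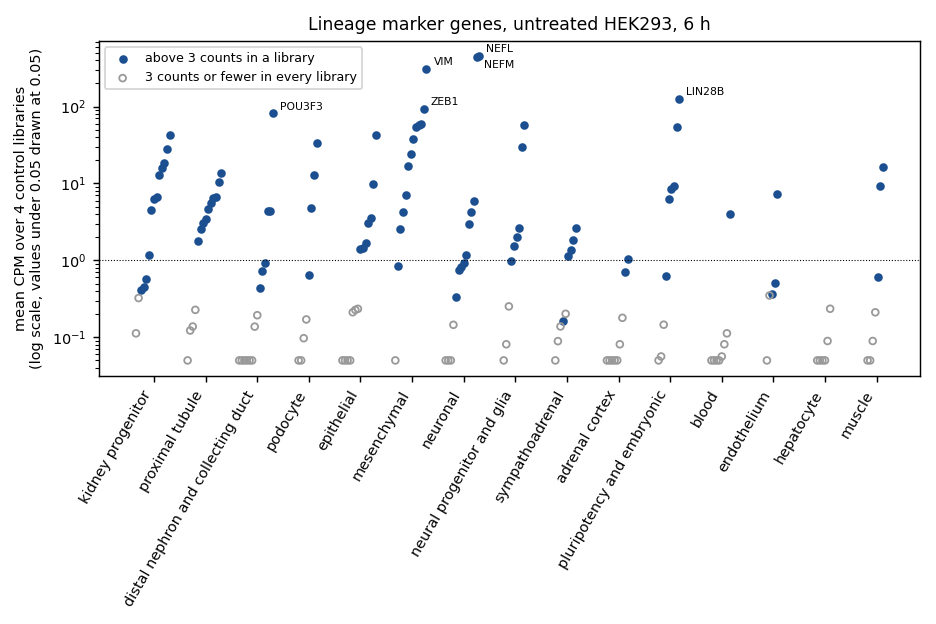
Mean CPM over the 4 control libraries (log axis, values under 0.05 drawn at 0.05) of every matched gene of 15 lineage lists, with 1 point per gene and open circles for genes at 3 counts or fewer in every control library. NEFL and NEFM stand highest, VIM, LIN28B, ZEB1 and POU3F3 are named as the next highest, and the hepatocyte genes lie below 1 CPM (dotted line).

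Receptors and signalling genes comprised 19 lists with 726 different genes, of which 424 had a mean above 1 CPM in the untreated cells. Among all protein-coding genes, 13599 of 20327 did so (66.9%). The transfected receptor was among the most abundant of the 726 genes, with the actins. AGTR1 (chr3:148415571-148460795, hg19) was 924, 1175, 1099 and 1180 CPM and stood at rank 24 of all protein-coding genes per length, at 2004 TPM. Library c01 was the lowest, and the CV of 10.9% stood beside a median of 8.38% over genes above 100 CPM. TPM divides AGTR1 by all of its annotated exons, whereas the length transcribed from the plasmid is not given in the sources used here. AGTR2, the other angiotensin II receptor, had 0 counts in all control libraries, which allows up to 0.137 CPM over the 4 libraries together (3 counts, counting error only). AGT, the precursor of angiotensin, and MAS1, a receptor for angiotensin 1-7, also had 0 counts. Of 13 genes of the renin-angiotensin system, 9 exceeded 1 CPM, among them the peptidases LNPEP (111 ± 11.1 CPM) and ENPEP (45.6 ± 4.84 CPM) and AGTRAP, which binds AT1R (19.6 ± 1.32 CPM).

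All 4 ERBB receptors had a mean above 1 CPM. ERBB2, which has no known ligand of its own, was 99.2, 82.8, 90.1 and 86.5 CPM (55.1 TPM). EGFR was 47.5, 51.6, 42.8 and 40.3 CPM (18.2 TPM), and ERBB4, a neuregulin receptor, was 47.8 ± 4.15 CPM (23.4 TPM). ERBB3 was 0.675, 3.24, 2.52 and 3.93 CPM. Per length ERBB2 led and ERBB3 (1.42 TPM) was lowest, whereas the order of ERBB4 and EGFR depended on the length used (14.7 and 17.0 TPM with the canonical transcripts). Ligands of these receptors were scarce, since 3 of 11 exceeded 1 CPM and 7 were at 3 counts or fewer in every control library. NRG4, a ligand of ERBB4, led them at 22.1 ± 5.73 CPM. HBEGF, a ligand of EGFR released by shedding, was 1.8, 1.30, 1.16 and 0.492 CPM, and EGF itself was 0.965 ± 0.568 CPM. The sheddases were expressed more broadly, with 8 of 9 above 5 CPM. ADAM15 led per length (87.5 TPM, 91.1 ± 17.4 CPM), and ADAM10, ADAM9 and ADAM17 had 85.5 ± 10.1, 94.6 ± 6.01 and 52.9 ± 2.80 CPM.

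Of 58 receptor tyrosine kinases, 44 exceeded 1 CPM and 16 exceeded 50 CPM. IGF1R, the receptor of insulin-like growth factor, led at 508 ± 23.4 CPM (232 TPM). PTK7, a WNT co-receptor (116 TPM), MET, the receptor of hepatocyte growth factor (107 TPM), EPHB4 (102 TPM) and INSR, the insulin receptor (91.8 TPM), followed. EGFR, at 18.2 TPM, was thus not among the 5 highest of its class. Of 336 G protein-coupled receptors, 122 exceeded 1 CPM and 82 had 0 counts in every control library. After AGTR1, the highest level per length was that of SMO, the Hedgehog transducer (91.1 ± 6.52 CPM, 122 TPM), followed by LPHN1, an adhesion receptor (121 ± 9.73 CPM, 90.5 TPM). F2R, a thrombin receptor that also couples to Gq, reached 46.4 ± 4.77 CPM.

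Receptors of other classes differed in how broadly they were expressed. Of 14 receptors of the TGF-beta superfamily 13 exceeded 1 CPM, led by ACVR2B, an activin receptor, at 371 ± 12.95 CPM. Of 48 nuclear receptors 38 exceeded 1 CPM, among them NR1D2, a clock component, at 95.4 ± 10.6 CPM and NR3C1, the glucocorticoid receptor, at 114 ± 8.31 CPM. Of 52 cytokine receptors 29 did, led by TNFRSF10B, a death receptor for TRAIL, at 309 ± 20.2 CPM (392 TPM) and followed by IFNGR2, a chain of the interferon gamma receptor (130 TPM).

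Most listed genes of the signalling steps between the receptors and the nucleus exceeded 1 CPM. Among 33 heterotrimeric G protein genes 25 exceeded 1 CPM. GNAS, the Gs alpha subunit, led by count at 475 ± 36.3 CPM, but GNB2, a beta subunit, led per length (281 TPM against 136 TPM for GNAS). This order depended on the length, since GNAS led with the length of its canonical transcript (949 TPM). The highest member stayed the same with canonical lengths in 26 of the 34 lists. The Gq family members GNAQ (70.6 TPM) and GNA11 (53.1 TPM), which couple AT1R to phospholipase C, were both present. Of 22 genes of phospholipase C, IP3 receptors and protein kinase C, 20 exceeded 1 CPM, with the IP3 receptor ITPR3 at 170.1 ± 2.14 CPM and PLCB3, a Gq effector, at 61.8 ± 4.15 CPM. Arrestins and GRKs were led by GRK6 (119 ± 29.7 CPM), and ARRB2, beta-arrestin 2, was 52.0 ± 4.53 CPM.

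Of 20 genes of the RAS-RAF-MEK-ERK cascade, 19 exceeded 1 CPM and 11 exceeded 50 CPM. NRAS led per length (226 TPM), although MAP2K2 (MEK2) led with canonical lengths (217 TPM), and the kinase MAPK3 (ERK1) was 74.7 ± 6.78 CPM (129 TPM). The adaptor GRB2 was 65.1 ± 3.21 CPM and the phosphatase PTPN11, which promotes RAS signalling, was 239 ± 23.2 CPM. SRC was 34.9 ± 3.98 CPM (31.0 TPM) and its relative FYN 187 ± 7.06 CPM (161 TPM). The PI3K-AKT-mTOR list (20 of 22 above 1 CPM) held MTOR at 239 ± 8.43 CPM and AKT2 at 204 ± 18.9 CPM. In the list of small GTPases, their kinases and actin (20 of 21) the cytoplasmic actins ACTG1 (1885 TPM) and ACTB (1627 TPM) led, and RHOA was 281 ± 24.5 CPM (371 TPM).

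At the level of transcription factors, SRF and most of its cofactors were present, while levels among the AP-1, EGR and ARC genes were mixed. Of these 15 genes, 12 exceeded 1 CPM, 7 exceeded 5 CPM and 2 exceeded 50 CPM, with a median of 4.83 CPM. SRF was 66.1, 68.3, 73.1 and 78.3 CPM (107 TPM) and ELK1 was 47.2 ± 4.38 CPM (88.5 TPM). The MRTF genes MKL1 (34.9 ± 3.23 CPM) and MKL2 (88.6 ± 10.1 CPM) were both detected, whereas MYOCD, the muscle member of this family, had 0 counts, with the same upper limit as AGTR2. FOS, the AP-1 partner of JUN, was 0.675, 0.811, 0.969 and 1.48 CPM. EGR1, a zinc finger factor, was 1.35, 1.95, 2.91 and 2.79 CPM. ARC, a gene of synaptic plasticity with SRF sites, was 0.675, 1.46, 1.16 and 3.11 CPM. These levels rest on 3 to 19 counts a library, so that counting error is large. JUN stood apart from these genes, at 353, 293, 229 and 303 CPM (514 TPM), and JUND reached 68.9 ± 11.5 CPM (226 TPM). Of 17 MAP kinase phosphatases and Sproutys, which act as feedback inhibitors, 13 exceeded 1 CPM and 1 exceeded 50 CPM, with DUSP16, a JNK and p38 phosphatase, at 70.6 ± 5.85 CPM, DUSP1 at 18.1 ± 3.02 CPM and SPRY1, an inhibitor of RAS signalling, at 25.2 ± 4.70 CPM.

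**Figure D3:**
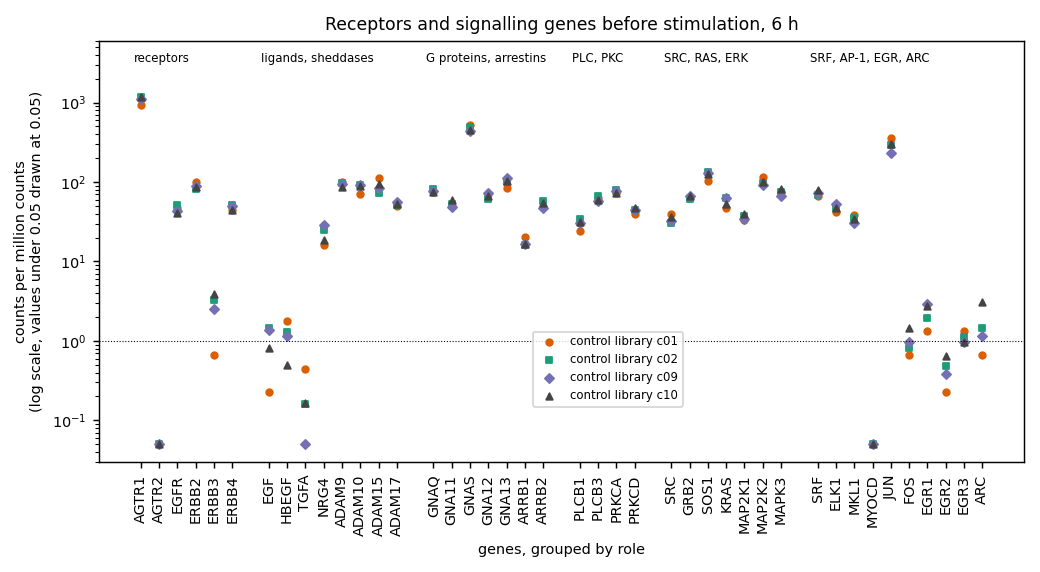
CPM (log axis, values under 0.05 drawn at 0.05, dotted line at 1 CPM) of receptors, ligands, sheddases and signalling genes in order of their role, with 1 point per control library after 6 h. AGTR1 stands highest, AGTR2 and MYOCD have no counts, and FOS, EGR1, EGR2, EGR3 and ARC lie near 1 CPM. SRC, MAPK3, SRF, ELK1 and MKL1 lie between these immediate early genes and AGTR1, and JUN is at 229 to 353 CPM.

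How far the control libraries themselves differed was examined by comparing c09 and c10 with c01 and c02, a split that the library numbers offer. Genes were called by edgeR's quasi-likelihood test where the FDR was under 0.05, the fold change above 1.5 and FPM above 5. In this way 1 of 19999 genes was called (0.00500%), and 1343 had an unadjusted p under 0.05. It was the pseudogene AC009245.3, at 34.5 against 68.0 CPM (FDR 0.03). Of the 436 receptor and signalling genes tested, 0 were called by edgeR, and DESeq2 called 8 genes in all. With 1 of these libraries left out, 1 side is a single library whose spread is assumed to be that of the other groups. In this way 247 genes were called without c02, whereas AC009245.3 was not called without c01 (log2 fold change -0.82), c09 (-1.14) or c10 (-0.85). Among genes above 20 CPM, the largest variation was that of U3 RNA genes. SNORD3A, whose RNA takes part in processing ribosomal RNA, was 40.7, 137, 1188 and 1485 CPM in c01, c02, c09 and c10, so that c09 and c10 were both above c01 and c02. SNORD3D, SNORD3B.1 and SNORD3B.2, near-identical copies, had the same order of these pairs. Of all genes tested, 16.4% were higher in c09 and c10 without overlap. Over all genes the median CV among the control libraries fell with level, from 35.4% at 1 to 5 CPM to 8.38% above 100 CPM.

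The baseline was then set against the stimulated cells of the same time point. All 3 comparisons share the control libraries. EGF changed 322 of 18618 genes tested (1.73%), 194 higher (1.04%) and 128 lower (0.688%), and AII+EGF changed 363 (1.95%), 258 higher (1.39%) and 105 lower (0.564%). With AII alone 0 genes were called by edgeR (845 at an unadjusted p under 0.05), and DESeq2 called 0 as well. Genes that rose with EGF had a median control level of 11.4 CPM, and 46 of the 194 (23.7%) were below 5 CPM in the control. Over all genes tested the median was 16.9 CPM, and 30.1% were below 5 CPM. Genes that fell had a median control level of 14.3 CPM, and none was below 5 CPM. The FPM limit shapes both sets, as it requires a level above 5 with EGF of genes that rose and in the control of genes that fell, so these levels are a description of the called genes.

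Of 413 receptor and signalling genes tested, 23 were higher and 4 lower with EGF (6.54%, beside 1.73% of all genes tested). With AII+EGF, 31 were higher and 2 lower (7.99%, beside 1.95%). The median log2 fold change of the 413 genes was 0.01 with EGF and 0.05 with AII+EGF, beside -0.01 over all genes tested in both. Of the 13 AP-1, EGR and ARC genes tested, 5 rose with EGF (median log2 fold change 0.39) and 6 with AII+EGF (0.57). Of the 13 MAP kinase phosphatases and Sproutys tested, 5 and 6 rose. Over all genes tested, 1.04% rose with EGF and 1.39% with AII+EGF. These gene lists were chosen with earlier results of these data known.

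EGR1 rose from 1.35 to 2.91 CPM in the controls to 55.6, 53.9, 48.4 and 46.1 CPM with EGF, without overlap (log2 fold change 4.48 ± 0.17 SE, FDR 2.4e-14), and to 47.1 to 67.7 CPM with AII+EGF (4.64, FDR 9.5e-15). With AII it was 2.38 to 4.01 CPM and overlapped the controls (0.50 ± 0.27, FDR 0.99). FOS was 5.05 ± 0.957 CPM with EGF (FDR 3.2e-05) and 6.48 ± 1.56 CPM with AII+EGF (FDR 2.9e-06), both above all controls, and 1.58 ± 0.322 CPM with AII (FDR 0.99). ARC was 9.86 ± 1.79 CPM with EGF and 17.8 ± 2.10 CPM with AII+EGF, beside 1.60 ± 1.06 CPM in the controls (FDR 3.5e-06 and 9.5e-09). EGR3 rose from 1.11 ± 0.177 CPM to 7.35 ± 0.996 and 9.63 ± 1.51 CPM. JUN, high at baseline, was 269 ± 14.3 CPM with EGF and 317 ± 15.8 CPM with AII+EGF and passed no test (FDR 0.58 and 0.53). FOSL2, an AP-1 factor at 21.2 ± 0.951 CPM in the controls, rose to 31.8 ± 2.57 CPM with EGF (0.60, FDR 0.0017), a call that was lost at the fold limit without c02 (0.58) or the EGF library c12 (0.56). The call of FOS with EGF was lost at the FPM limit without the EGF library c04 (2.30) or c12 (2.23).

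Among feedback inhibitors, SPRED2, which restrains RAF, rose from 14.6, 17.8, 17.5 and 18.7 CPM to 45.7 to 51.2 CPM with EGF (log2 fold change 1.5 ± 0.1, FDR 4.6e-10) and to 42.6 to 52.6 CPM with AII+EGF. DUSP5, a nuclear ERK phosphatase, rose from 1.78 ± 0.259 to 5.37 ± 1.03 and 6.22 ± 0.278 CPM (FDR 0.00036 and 5.6e-05), although without c04 its mean with EGF missed the FPM limit (log2 fold change 1.48). SPRED1, SPRY2 and DUSP4 rose in both comparisons as well. Among receptors, the heptahelical receptor GPR50 rose from 0.666 ± 0.339 CPM to 8.23 ± 1.71 CPM with EGF (log2 fold change 3.56, FDR 1.4e-06) and TNFRSF12A, the TWEAK receptor, from 0.764 ± 0.460 to 5.08 ± 0.279 CPM (2.70, FDR 8e-05). EPHA2, an ephrin receptor, rose from 11.3 ± 2.48 to 22.4 ± 3.30 CPM, and CXCR4, a chemokine receptor, from 19.5 ± 4.60 to 36.2 ± 6.14 CPM. KIT, the receptor of stem cell factor, fell from 32.6 ± 3.03 to 20.2 ± 3.35 CPM with EGF (FDR 0.0024) and to 17.1 ± 3.42 CPM with AII+EGF (FDR 0.00015). Both groups lay below every control library, and the call with EGF was lost at the fold limit without c04 (-0.58).

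AGTR1, EGFR and ELK1 moved less than the fold limit in every comparison. AGTR1 was 1086 ± 117 CPM with EGF, 1401 ± 72.5 CPM with AII (log2 fold change 0.34 ± 0.08, FDR 0.99) and 1462 ± 50.5 CPM with AII+EGF (0.45 ± 0.08, FDR 5e-04). All libraries with AII (1321 to 1488 CPM) and with AII+EGF (1398 to 1514 CPM) were above the highest control, at 1180 CPM. Such a separation upwards was found for 1.11% of all genes tested with AII and for 5.48% with AII+EGF. EGFR was 57.3 ± 4.59 CPM with EGF (0.35, FDR 0.032) and 59.2 ± 6.17 CPM with AII+EGF (0.41, FDR 0.012), and ELK1 was 61.1 ± 2.49 and 65.8 ± 4.999 CPM (0.39, FDR 0.0055, and 0.51, FDR 0.00035). ERBB2, SRF, MKL1 and MAPK3 had FDR values of 0.29 or more in all 3 comparisons. Of 63 lineage genes tested, 3 rose and 2 fell with EGF (7.94%, beside 1.73% of all genes tested). The median log2 fold change of the 63 genes was 0.03, beside -0.01 over all genes tested. NEFM rose to 662 ± 49.4 CPM (0.60 ± 0.10, FDR 0.0004) and to 720 ± 44.1 CPM with AII+EGF (0.73, FDR 3.3e-05). WT1, a kidney progenitor factor, rose to 9.33 ± 0.402 CPM with EGF (1.01, FDR 0.03), from 0.900 CPM in c01 and 5.08 to 6.16 CPM in the other controls. POU5F1 (-0.96, FDR 0.013) and the proximal tubule receptor CUBN (-1.05, FDR 0.028) fell. With EGF, the call of NEFM was lost without c01 (0.51), c04, c11 or c12 (0.57 to 0.58), that of WT1 without c10 (1.07) or the EGF libraries c03, c11 or c12 (0.99 to 1.02), and that of CUBN without c01 (-0.90), c02 (-1.01), c03 (-1.06), c11 (-0.98) or c12 (-0.85).

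**Figure D4:**
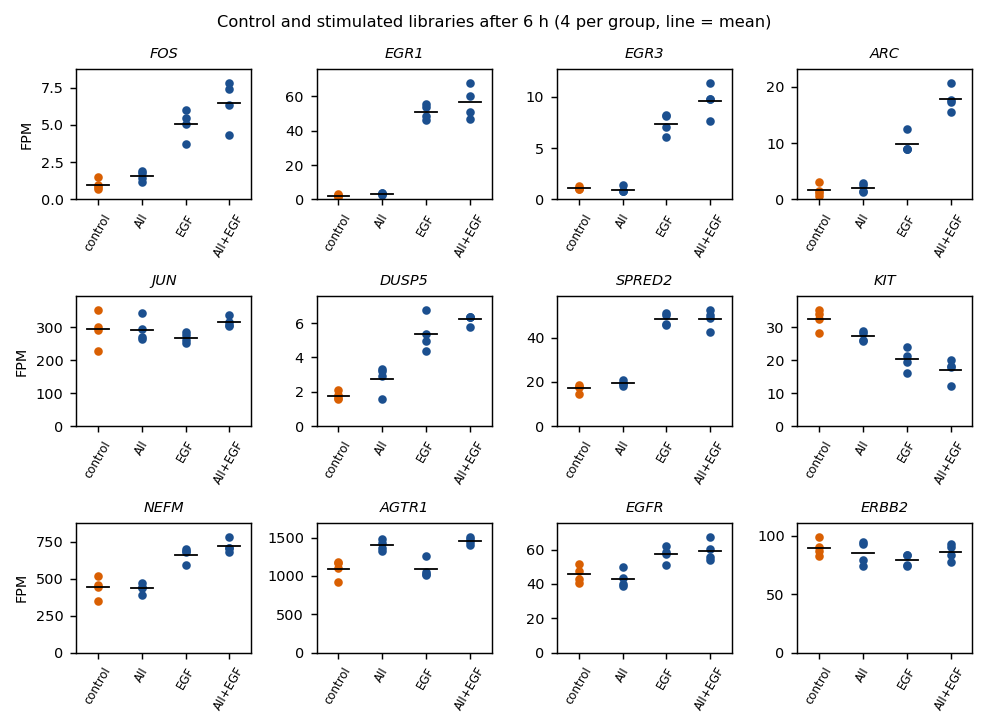
FPM (linear axis from 0) of 12 genes in the 4 libraries each of control, AII, EGF and AII+EGF after 6 h, with 1 point per library and a line at each mean. EGR1, EGR3, ARC, FOS, DUSP5 and SPRED2 lie above all controls with EGF and AII+EGF, KIT lies below them, and the JUN and ERBB2 groups overlap.

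ETV5 and ETV1, ETS factors that act downstream of ERK, reached the highest levels among genes that left the floor with EGF. Of 31699 genes with 3 counts or fewer in every control library, 60 (15 of them protein coding) exceeded 3 counts in every EGF library, 31 (13 protein coding) did so with AII+EGF and 14 (3 protein coding) with AII. The floor is set in counts, and depth differed between the groups, with 5738377 to 8540815 counts in the EGF, 5518193 to 7071086 in the AII+EGF, 3881841 to 6235826 in the AII and 4445377 to 6168318 in the control libraries. The part of depth in these numbers was not tested. ETV5 had 1, 2, 0 and 0 counts in c01, c02, c09 and c10, against 43, 46, 45 and 82 with EGF and 37, 48, 85 and 60 with AII+EGF. ETV1 had 0, 0, 2 and 2 counts in the controls and 12 to 27 with EGF. By mean CPM with EGF they were followed by RNU6.6P, listed as an snRNA, with 41 counts in 1 EGF library and 4 to 9 in the others, by CCNA1, a cyclin, with 10 to 15 counts, and by WNT6, a secreted ligand, with 7 to 13 counts. In the reverse direction, of 18669 genes above the floor in every control library, 7 were at the floor in every EGF library, 6 with AII+EGF and 17 with AII.

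Finally, the untreated cells after 6 h were compared with untreated cells after 24 h, which had been left without stimulus for longer. Values are given as CPM of the counts on protein-coding genes, since the 24 h control libraries held 8.90% to 22.9% of their counts on U1 RNA and 35.6% to 63.4% on protein-coding genes. Time and library preparation cannot be told apart. Of 18513 genes tested, 4496 (24.3%) differed, 2789 higher after 24 h (15.1%) and 1707 lower (9.22%). The largest rises were those of 5S ribosomal RNA genes such as RNA5S16, at 21142 against 1.504. Of 63 lineage genes tested, 24 were higher and 0 lower (38.1%), with a median log2 difference of 0.58 beside 0.00 over all genes. NEFM was 3307, 3006, 3135 and 3666 after 24 h against 421 to 633 after 6 h (2.60 ± 0.15, FDR 9.6e-09). NEFL was 862 ± 75.9 against 550 ± 107 (0.63, FDR 0.0034), SOX9 75.6 ± 16.3 against 36.2 ± 2.26 (1.05, FDR 0.0001) and POU3F3 188 ± 21.7 against 98.8 ± 17.2 (0.91, FDR 8.7e-05). For these 4 genes all 24 h libraries exceeded all 6 h libraries, as they did for 19.5% of all genes tested. LIN28B and the other embryonic genes tested were not called.

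Of 406 receptor and signalling genes tested, 52 were higher and 21 lower after 24 h (18.0%, beside 24.3% of all genes tested). EGR1 was 8.78 to 13.97 after 24 h, against 1.63 to 3.49 at the earlier time (2.02 ± 0.33, FDR 0.00025), and FOS was 2.70 to 9.04 against 0.817 to 1.796 (2.18 ± 0.52, FDR 0.0043). Of the 12 AP-1, EGR and ARC genes tested, 5 were higher and 0 lower, beside 15.1% and 9.22% of all genes tested. ERBB4 was 93.1 ± 5.18 against 57.7 ± 4.73 (0.67 ± 0.11, FDR 0.00019) and ARRB2 131 ± 18.6 against 62.8 ± 5.57 (1.04, FDR 1.7e-05). MTOR was lower, at 127 ± 14.3 against 289 ± 9.52 (-1.21, FDR 7.4e-07), as was the sheddase ADAM15 (62.1 ± 10.8 against 110.1 ± 21.3). AGTR1, at 869 to 1514 after 24 h beside 1118 to 1436, was not called (-0.23 ± 0.16, FDR 0.29), nor were EGFR (FDR 0.2), ERBB2 (0.13) and SRF (0.99).

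**Figure D5:**
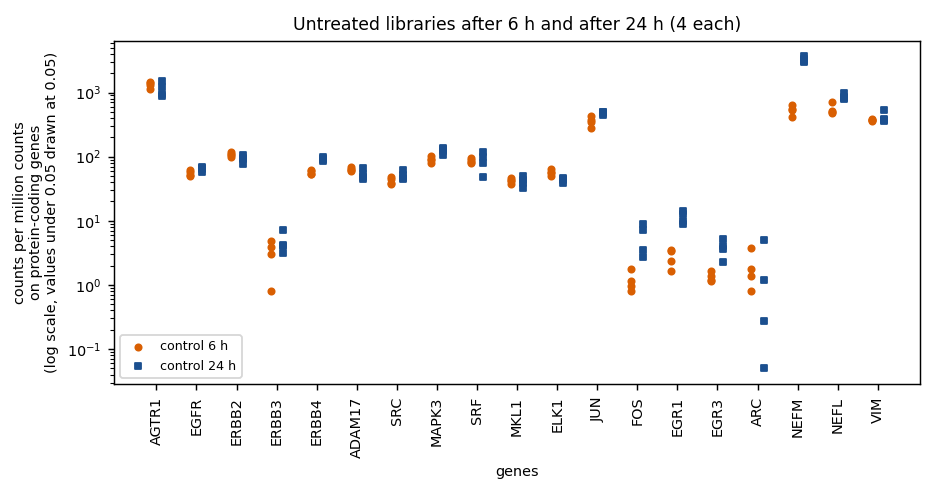
CPM of the counts on protein-coding genes (log axis, values under 0.05 drawn at 0.05) of 19 genes in the 4 control libraries after 6 h and the 4 after 24 h. NEFM and EGR1 lie higher after 24 h without overlap, AGTR1, EGFR and ERBB2 overlap, and the ARC points spread widely at both times.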

How the data were processed

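The authors deposited raw read counts per gene for the 6 h and 24 h libraries. According to the study's methods and the submitters' processing notes, reads were trimmed with Trim Galore and cutadapt 1.8.1, mapped to hg19 with TopHat2 2.0.14 and counted with featureCounts 1.4.6. The deposited design text names HISAT2 instead, and the strand setting is not given in the sources used here, so antisense and overlapping genes are uncertain. Groups came from the treatment labels. One AII+EGF library after 24 h was not analysed here. Some 24 h columns are named as filtered, without an explanation.

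CPM used all counts of a library (24 h comparison: counts on protein-coding genes), TPM the union exon length (55857 genes, 490 protein-coding genes without). After filterByExpr, edgeR 4.0.16 (R 4.3.3) gave TMM factors and quasi-likelihood tests, in fits of the 16 libraries after 6 h (4 conditions, or 8 groups of condition by library-number run for the split of the controls) and of the 8 controls for time. Calls required an FDR (Benjamini-Hochberg) under 0.05, a fold above 1.5 and FPM above 5 in the higher group. Scripts were tested on simulated counts. The members and gene lists were chosen with earlier results of these data known. Named genes were the 25 protein-coding and 10 other genes highest by TPM, the highest members of each list and those the study worked on, called list members, the 8 largest changes in each direction, the 8 most variable genes above 20 CPM and the 8 highest that left the floor of 3 counts. XIST, RN7SL1, CDH1, EPCAM, AGT, MAS1, GNAQ, GNA11, MKL2 and AKT2 were added after their values were seen. Alternatives were DESeq2 1.42.0, other filters and limits, a block for library numbers and leaving out each control library. Leaving out each stimulated library after 6 h was added after seeing the data. Intervals and floors cover counting error only. Mitochondrial genes have 0 counts. Results of some genes are not reported here.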

Additional observations from a re-analysis of the deposited data

Results flagged for a closer look

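Of 202 groups of 4 control values examined with Dixon's ratio (the gap between an extreme library and its neighbour, as a share of the whole range), 10 exceeded the critical value at the 95% level. About 1 in 20 groups does so by chance. In 8 of the 10 the library apart was c01. In NEFL, which encodes a neurofilament, the ratio was 0.916, with c01 at 586 and the other libraries at 402 to 417 CPM. Histone genes were apart in the same direction, HIST2H3A and HIST2H3C with a ratio of 0.844 each and HIST1H2AG with 0.867. The elongation factor pseudogenes EEF1A1P5 (0.894) and EEF1A1P6 (0.859), the pseudogene DNM1P47 (0.944, 302 CPM in c01 against 104 to 115) and the claudin gene CLDN3 (0.833, 2.92 CPM in c01 against 0.775 to 1.13) were also highest in c01. ATP6V1B1, a proton pump subunit of intercalated cells, was apart in c02 (0.878, 5.84 against 3.82 to 4.07 CPM), and TNFRSF21, a death receptor, in c09 (0.831, 29.7 against 32.0 to 32.4 CPM).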

How the results depend on the processing

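No refitted fold change reversed under any alternative run, whereas orders of levels did change. Refits covered the 8 largest changes in each direction and, at 6 h, the called list members. Other list members in the 24 h comparison, and genes that were not called, were not checked in this way. With TPM, which were scaled to protein-coding genes alone, 21661 genes exceeded the same limit of 5, against 13019 by FPM of all counts. The 10 most abundant genes held 2.75% of the counts when only protein-coding genes were ranked, against 9.04%. The highest member of a list by TPM was also the highest by CPM in 20 of 34 lists and by TPM with canonical lengths in 26. In the comparison among control libraries (1 gene called), DESeq2 called 8 genes, no filter on low counts 65, protein-coding genes only 0, and leaving out 1 library 0 to 247, the latter without c02. Such a fit compares a pair with 1 library, whose spread is assumed to be that of the other groups. Without the FPM and fold limits, EGF changed 1112 and AII+EGF 1136 genes, and without the filter on low counts AII changed 17. With 1 control or stimulated library left out, the EGF call count ranged from 272 to 354 and that of AII+EGF from 307 to 391. Of 1501 refitted folds of 74 named genes in 108 pairs of gene and comparison, 97 were no longer past the threshold. The labels give no replicate numbers, so libraries were not paired. A block for the runs of library numbers gave 340 genes for EGF, 0 for AII and 379 for AII+EGF. For time, FPM of all counts gave 3902 genes against 4496. Counting error limits genes of a few counts, such as FOS, HBEGF and ARC.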
